A study of Mus musculus with 11 samples.

Results

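Type I interferon-stimulated genes are described here as a fixed group of 36 genes, taken by symbol from the Ensembl identifiers of a mouse gene table with 55414 genes. The group was chosen with earlier results of these data known, so its counts beside those of all genes are a description. All 36 were found, and all 36 were among the 22238 genes that passed the filter on low counts. The cells were OT-I CD8+ T cells, whose T cell receptor transgenes recognise a peptide of ovalbumin, and the table held 11 poly(A) RNA-seq libraries, each at 12 h. Torin cells (3 libraries, numbered 1, 3 and 4) received Torin, an inhibitor of the mTOR kinase, together with N4, the native peptide for this receptor. Stimulated cells (4 libraries) received N4 with DMSO, the solvent. Naive cells (4 libraries) were left untreated, and all 3 groups carried the OT-I genotype. The labels give neither the age of the mice nor whether libraries came from separate animals, so the p-values measure the spread between these libraries.

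In this pathway, type I interferons bind a receptor made of IFNAR1 and IFNAR2, which activates the kinases JAK1 and TYK2. These act through STAT proteins, and STAT2 joins IRF9 in the complex ISGF3. ISGF3 enters the nucleus and switches on genes whose promoters hold an interferon-stimulated response element. Many of these genes block viral replication, and resting T cells transcribe a low level of them through tonic interferon signalling. T cell receptor ligation, mTOR and interferon signalling are each known to act on T cell differentiation.

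Promoter windows were available for 26 of the 36 genes, in 31 windows of 300 bases (RefSeq, GRCm38.p6), from 250 bases before the annotated start to 50 after it. A loose form of the response element, GAAA followed after any 2 bases by a second GAAA, on either strand, was present in 13 of the 26 genes (50%), against 1079 of the 27025 genes with a window (3.99%). The gamma-activated site, TTCNNNGAA, was present in 6 of the 26 (23.1%), against 9.55% of all genes, and 3 genes held both motifs. Of the 22 matches to this loose form, with overlapping ones counted apart, 17 began before the annotated start. The letters were not found in these windows of Cmpk2, Herc6, Ifi35, Ifi44, Ifit2, Irf7, Irf9, Isg20, Lgals3bp, Oasl1, Oasl2, Samd9l and Xaf1. The 200 bases before the start are shown for Isg15 and Bst2, 2 of the members whose values in every library are given below, and for Ifit3 and Ifit3b, which are near copies of each other. They are given in the direction of transcription, with matches in capitals. Isg15 (chr4:156200819-156201018, minus strand) has 3 overlapping matches, Bst2 (chr8:71537473-71537672, minus strand) has 2 overlapping ones, and Ifit3 (chr19:34583329-34583528, plus strand) and Ifit3b (chr19:34607757-34607956, plus strand) each have 2 matches 34 bases apart, read as TTTC, any 2 bases and TTTC on the strand printed.
Isg15: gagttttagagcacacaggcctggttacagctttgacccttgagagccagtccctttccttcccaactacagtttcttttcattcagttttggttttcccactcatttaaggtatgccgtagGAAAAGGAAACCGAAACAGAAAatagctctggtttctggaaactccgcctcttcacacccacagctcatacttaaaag
Bst2: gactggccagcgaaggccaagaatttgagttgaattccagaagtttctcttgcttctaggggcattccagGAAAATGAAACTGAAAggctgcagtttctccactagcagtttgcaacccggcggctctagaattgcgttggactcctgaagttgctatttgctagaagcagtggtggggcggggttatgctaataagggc
Ifit3: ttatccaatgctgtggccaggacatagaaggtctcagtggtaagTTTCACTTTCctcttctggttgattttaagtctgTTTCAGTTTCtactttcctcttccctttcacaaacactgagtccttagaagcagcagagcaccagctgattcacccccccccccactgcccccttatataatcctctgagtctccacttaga
Ifit3b: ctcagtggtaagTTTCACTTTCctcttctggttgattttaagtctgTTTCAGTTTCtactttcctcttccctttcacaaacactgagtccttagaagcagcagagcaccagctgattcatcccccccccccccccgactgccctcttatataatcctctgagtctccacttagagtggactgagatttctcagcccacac
The motif was found in 7 of the 15 genes that were lower in Torin than in stimulated cells by the test below and in 6 of the 11 others with a window. A match is a description of the letters, and binding was not measured.

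Levels are given as CPM, the deposited estimated counts scaled to a common library total with TMM factors. The 11 libraries held between 274506087 and 405884097 estimated counts in Torin, 278965885 and 318559117 in stimulated, and 241865667 and 347851527 in naive cells. Whether 1 estimated count equals 1 read is not given in the sources used here, so these totals are not read as a sequencing depth. The 8 T cell markers, among them Cd3e and Cd8a, were above 0 in every library and summed to 4244 to 4410 CPM in Torin, 2524 to 3189 CPM in stimulated and 5560 to 7050 CPM in naive libraries. The naive cells also carried transcripts of other cell types. The 14 monocyte and macrophage markers summed to 71.1 to 91.4 CPM in Torin, 146 to 346 CPM in stimulated and 1127 to 3104 CPM in naive libraries, with between 1 and 4 of them at 0 in each Torin and stimulated library. The 12 granulocyte markers summed to 2102 CPM in stimulated 2 and 8805 CPM in naive 2, and to at most 179 CPM in any other library. The 8 B cell markers summed to 13243 CPM in Torin 4, 14392 CPM in stimulated 4 and 47395 CPM in naive 4, and to at most 366 CPM elsewhere. The 12 dendritic cell markers, Bst2 among them, summed to 257 to 317 CPM in Torin, 629 to 999 CPM in stimulated and 188 to 348 CPM in naive libraries, with between 0 and 3 of them at 0 in each library. Bst2 and Irf8 were higher in stimulated than in naive cells and 2 of the 12 were lower, and the 10 other than Bst2 and Irf8 each stayed at or below 14.2 CPM. Siglech, which defines plasmacytoid dendritic cells, was at 0 in Torin 1, Torin 3, the 4 stimulated libraries and naive 1. The 6 natural killer cell markers summed to 45.1 to 157 CPM in Torin, 55.8 to 364 CPM in stimulated and 24.0 to 292 CPM in naive libraries, highest in number 4 of each group. Cells of these other types also transcribe interferon-stimulated genes, and their part in the results was not tested. In bulk RNA, fewer cells of a type and less RNA per cell cannot be told apart.

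Taken by library, the 36 genes summed to 1029, 736 and 781 CPM in Torin 1, 3 and 4, against 2351, 4116, 1755 and 2160 CPM in stimulated 1 to 4 and 2057, 3751, 2266 and 2752 CPM in naive 1 to 4. No Torin library reached the lowest stimulated or naive sum, whereas stimulated and naive sums overlapped. Stimulated 2 had the highest level of its group for 29 of the 36 genes and stimulated 3 the lowest for 24. The mean was lowest in Torin cells for all 36 genes, and 32 ran in the order Torin, stimulated, naive. The 4 others, whose stimulated mean stood above the naive mean, were Isg15, Ifi44, Bst2 and Ifitm3. Per kilobase of exon the group was uneven: Ifi27l2a was the most abundant in each group, at a mean of 854, 2452 and 5146 TPM (counts per kilobase, scaled to the same sum in each library) in Torin, stimulated and naive cells, followed by Ifitm3 (467, 1248 and 941) and Bst2 (267, 689 and 427).

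**Figure D1:**
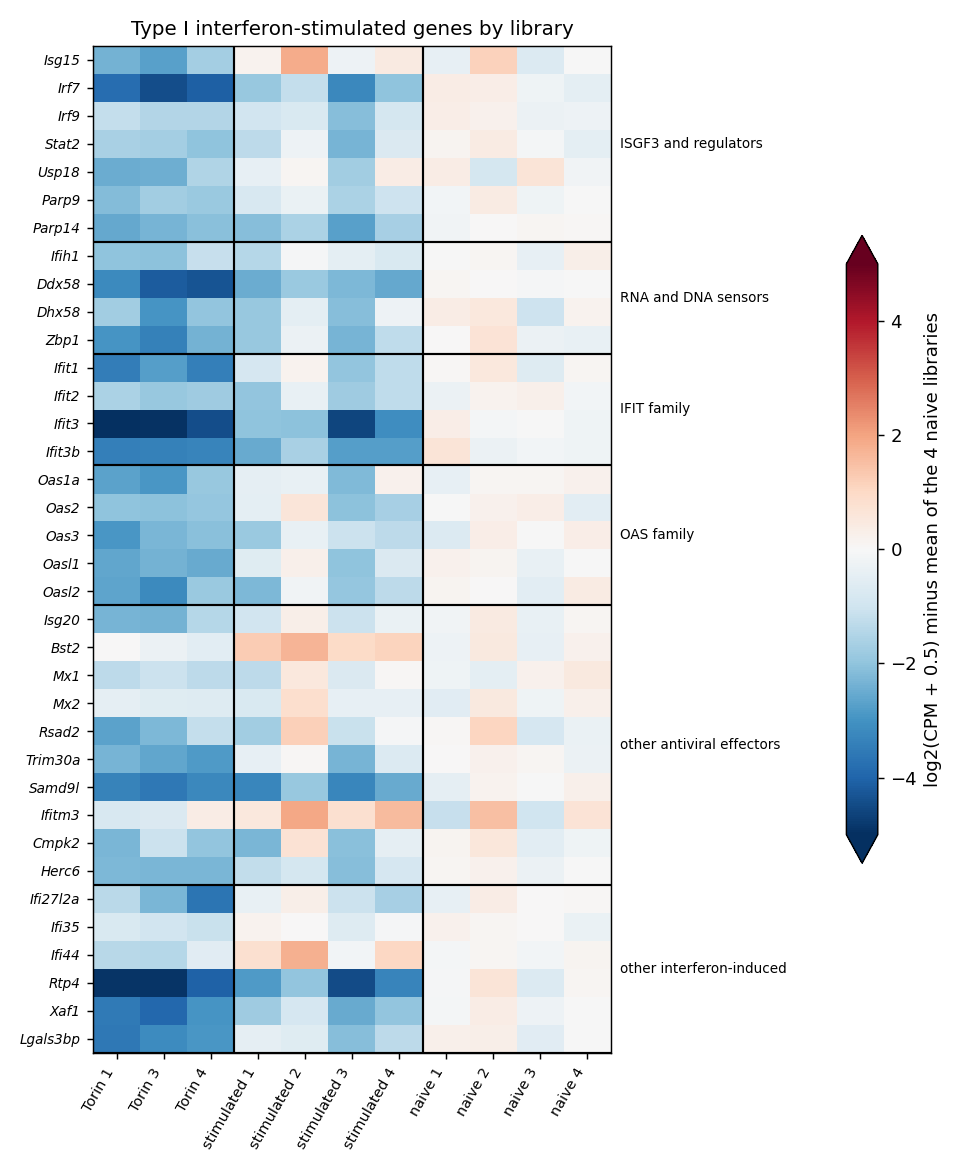
Level of each of the 36 genes (rows, ordered by role) in each library (columns), as log2(CPM + 0.5) minus the mean of the 4 naive libraries, with colours saturating at the ends of the scale. The 3 Torin columns are blue for nearly all genes and the stimulated columns are paler. Bst2 and Ifitm3 lie above the naive mean in all 4 stimulated libraries, Bst2 more evenly.

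Torin against stimulated cells compares cells given peptide and Torin with cells given peptide and DMSO. The groups also differ in the sums of T cell, monocyte and dendritic cell markers, as given above. The inhibitor and cell composition therefore cannot be told apart. In Torin cells 15 of the 36 fell and none rose (edgeR quasi-likelihood test, adjusted p below 0.05 over all 22238 genes; DESeq2 called 26 lower and 0 higher), where 2.30% of all genes tested were called lower and 2.32% higher by edgeR, and 7.08% and 5.32% by DESeq2. At an unadjusted p below 0.05, 28 of the 36 were lower and none higher, against 10% of all genes lower and 9.97% higher. Every one of the 36 log2 changes was below 0, against 51.3% of all genes. The median change was -1.90 on the log2 scale, beside -0.02 over all genes tested. For 17 genes every Torin library lay below every stimulated library, which 10.1% of all genes did. With the block 15 passed as lower, beside 1.97% of all genes. With library totals in place of TMM 9 passed as lower, beside 1.55% of all genes. Of all genes called there, 67.6% were higher, against 50.1% with TMM. Within the numbers the libraries share, 27 were lower in Torin in each of the numbers 1, 3 and 4, against 20.7% of all genes, with 32, 31 and 36 lower in numbers 1, 3 and 4.

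Stimulated against naive cells compares cells given peptide and DMSO with untreated cells. The groups also differ in transcripts of other cell types, as given above, so peptide, solvent and cell composition cannot be told apart. In stimulated cells 14 of the 36 fell and 1, Bst2, rose, where 20.2% of all genes tested were called lower and 19.2% higher. DESeq2 called 16 lower and 1 higher, beside 23.4% and 21.6% of all genes, and 17 were lower at an unadjusted p below 0.05, beside 25.3%. With the replicate number as a block 19 were lower and 3 higher, beside 21.5% and 19.7% of all genes. With library totals alone 17 were lower and 1 higher, beside 29.4% of all genes lower and 2600 of the 22238 higher. Of all genes called there, 28.5% were higher, against 48.7% with TMM. The median change was -0.94, beside -0.22 over all genes. In 22 of the 36 the stimulated library was below the naive library of its number in all 4 numbers, against 30.8% of all genes. Torin against naive cells, which shares its libraries with both comparisons, called 31 of the 36 lower and none higher (edgeR, 0 higher also at an unadjusted p below 0.05 and with DESeq2), where 15.8% of all genes were called lower and 16.4% higher, and its median was -2.71. All 36 changes were below 0 there as well, against 55.1% of all genes. Mx1, Mx2, Ifitm3, Cmpk2 and Bst2 did not pass that test.

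The calls of the main fit, made without the replicate block, split the 36 genes into sets. With the block some members change set, as given with their values below. Ifit3, Ifit3b, Irf7, Xaf1, Lgals3bp and Herc6 passed as lower in Torin than in stimulated cells and in stimulated than in naive cells. Isg15, Isg20, Ifit1, Ifi35, Ifi44, Oas1a, Oasl1 and Trim30a passed as lower in Torin than in stimulated cells and did not pass between stimulated and naive cells. Ifit2, Ddx58, Irf9, Rtp4, Zbp1, Parp9, Parp14 and Samd9l passed as lower in stimulated than in naive cells and did not pass between Torin and stimulated cells. Whether the changes of these sets differ from each other was not tested. Another 9, Ifi27l2a, Ifih1, Dhx58, Stat2, Oas2, Oas3, Oasl2, Rsad2 and Usp18, passed by edgeR only between Torin and naive cells.

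How far these counts hold depends on the libraries. Without the libraries of number 2, which carry the granulocyte transcripts, 5 of the 36 were lower in Torin than in stimulated cells, Isg15, Ifit3b, Irf7, Bst2 and Lgals3bp, where 0.861% of all genes were called lower, with a median of -1.41. In the same libraries 14 were lower and 1 higher in stimulated than in naive cells, beside 17.3% and 17.0% of all genes, with 13 of the lower ones shared with the full set. In Torin against naive cells 28 were lower, beside 14.6% of all genes. Leaving out single libraries gave between 1 gene lower in Torin than in stimulated cells, without Torin 3, and 20, without stimulated 3. Of all genes, 0.257% and 2.49% were called lower there. It gave 3 without Torin 1, beside 0.532% of all genes. It gave 8 without Torin 4, stimulated 2 or stimulated 4 (1.04%, 1.13% and 1.12% of all genes). Omitting stimulated 1 or naive 3 gave 9 (2.05% and 1.93% of all genes). Omitting all libraries of number 1, 3 or 4 leaves 2 Torin libraries. By edgeR 1 gene was then lower without number 1 and 0 without number 3 or 4. At an unadjusted p below 0.05, 27 of the 36 were lower in each of these fits. The share of all genes at that unadjusted threshold was not counted there, so the 27 has no background beside it. Of all genes, 0.399%, 0.0216% and 0.143% were called lower without numbers 1, 3 and 4. Every log2 change of the 36 remained below 0 in Torin against stimulated cells in each of these fits. The 5 genes gained without stimulated 3 were Oas2 (-6.27), Usp18 (-2.22), Rtp4 (-2.15), Zbp1 (-1.9) and Parp9 (-1.47). Ddx58 passed without Torin 1 (-4.22) and Ifih1 without Torin 4 (-5.42). In stimulated against naive cells, Stat2 (-1.51), Oas3 (-1.73), Oasl1 (-1.07) and Oasl2 (-2.0) were gained without stimulated 2, the library of that group with the granulocyte transcripts, Ifitm3 passed as higher (1.56) without naive 2, and Ifi44 passed as higher (1.42) without Torin 4.

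**Figure D2:**
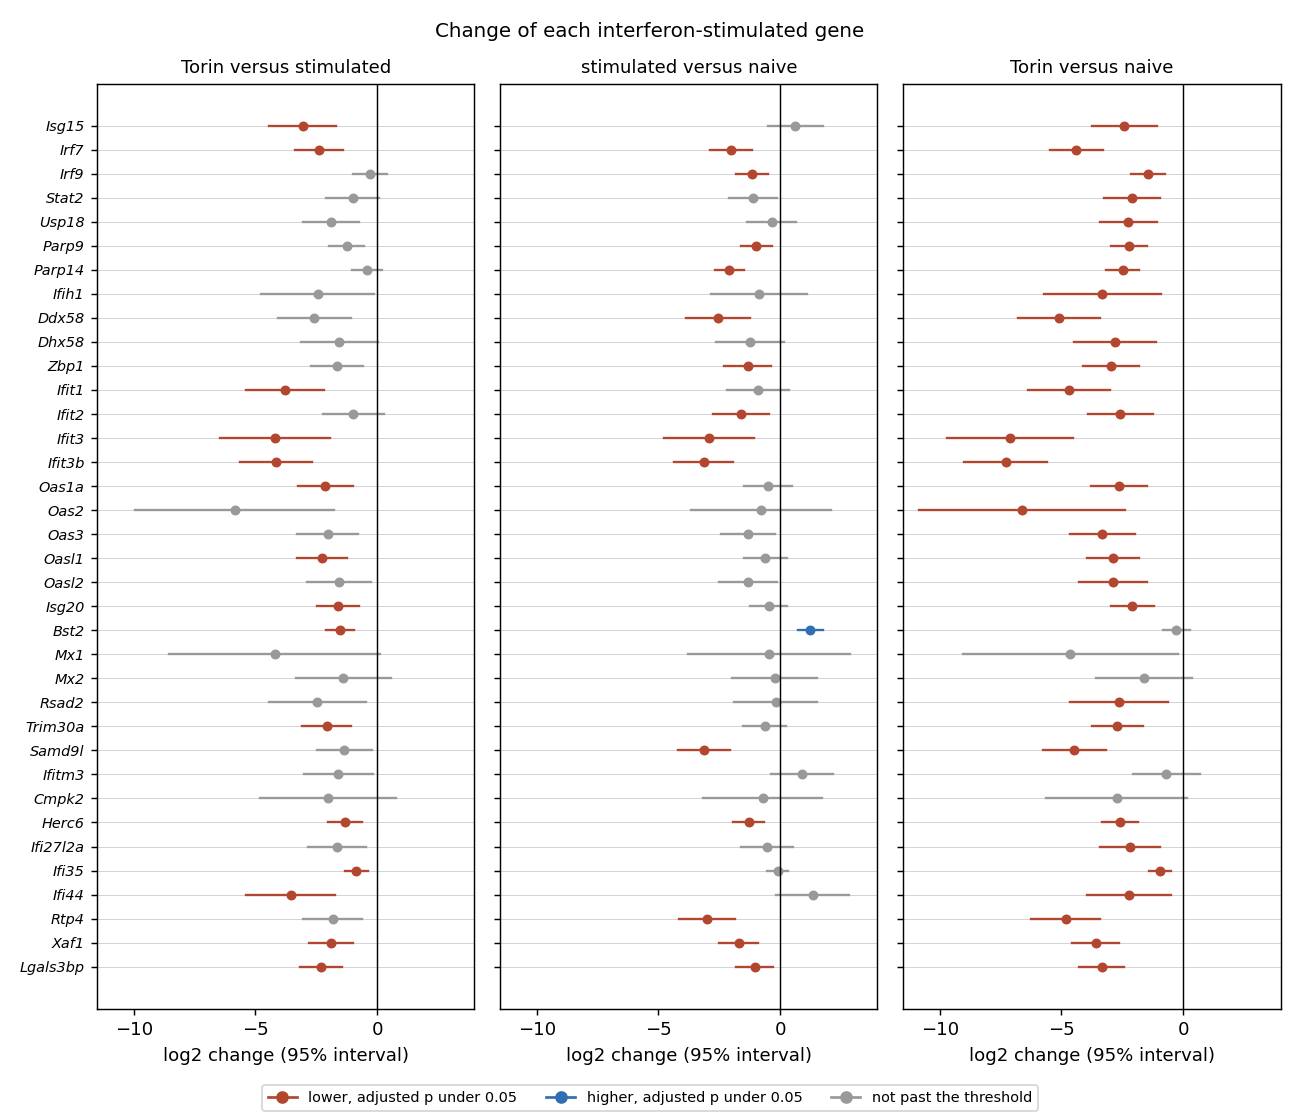
Fitted log2 change of each gene with its 95% interval in Torin versus stimulated, stimulated versus naive and Torin versus naive cells, red where lower and blue where higher at an adjusted p below 0.05, grey otherwise. All 36 points lie left of 0 in the outer panels, and in the middle panel 32 do, with Bst2 the 1 blue point.

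Among the transcription factors and regulators of the pathway, 2 of 7 fell in Torin against stimulated cells and 4 of 7 in stimulated against naive cells. Of all genes tested, 2.30% and 20.2% fell in these comparisons, and the same shares stand beside the counts of the role groups below. Irf7, the factor that drives interferon-alpha transcription, was at 3.11, 1.82 and 2.47 CPM in Torin libraries, against 13.0, 21.5, 4.97 and 12.0 CPM in stimulated and 65.3, 63.5, 42.7 and 35.9 CPM in naive libraries. No group overlapped another. It fell 5.22-fold in Torin against stimulated cells (log2 change -2.38 ± 0.44, SE, adjusted p = 0.0171 by edgeR) and 4.03-fold in stimulated against naive cells (-2.01 ± 0.39, SE, adjusted p = 0.00183 by edgeR). The first of these calls ended without Torin 1, Torin 3 or Torin 4, with log2 changes over all single omissions between -2.69 and -2.02.

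Isg15, a ubiquitin-like protein that is attached to other proteins, was at 11.9, 9.33 and 19.1 CPM in Torin libraries, against 70.9, 233, 53.2 and 87.4 CPM in stimulated and 47.3, 140, 38.9 and 61.6 CPM in naive libraries. All Torin libraries lay below all others, and the stimulated and naive libraries overlapped. It fell 8.25-fold in Torin against stimulated cells (-3.04 ± 0.62, SE, adjusted p = 0.0243 by edgeR), a call that ended without Torin 1, 3 or 4 (adjusted p 0.0976, 0.128 and 0.0518 by edgeR). Between stimulated and naive cells the change was 0.62 (95% interval -0.51 to 1.76), and with the replicate number as a block it passed as higher (0.57, adjusted p = 0.00515 by edgeR). In both groups number 2 was the highest.

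Of the 2 components of ISGF3 in the list, neither passed between Torin and stimulated cells. Irf9 was at 9.84, 8.01 and 7.94 CPM in Torin libraries, against 11.5, 13.4, 4.84 and 12.3 CPM in stimulated and 28.9, 26.8, 18.8 and 19.2 CPM in naive libraries. It fell 2.23-fold in stimulated against naive cells (adjusted p = 0.00829 by edgeR) and changed by -0.29 in Torin against stimulated cells (95% interval -0.97 to 0.40). Stat2 was at 1.73, 1.57 and 1.2 CPM in Torin libraries, against 2.26, 5.23, 0.870 and 3.66 CPM in stimulated and 6.96, 8.6, 5.90 and 4.41 CPM in naive libraries. Torin and stimulated libraries overlapped in both genes, through stimulated 3. Stat2 passed as lower only in Torin against naive cells (4.30-fold, adjusted p = 0.00936 by edgeR), and in stimulated against naive cells also with the replicate block (-1.25, adjusted p = 0.0420 by edgeR).

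Usp18, the protease that removes Isg15 and restrains the interferon receptor, was at 6.18, 6.44 and 12.6 CPM in Torin libraries, against 27.7, 39.7, 10.9 and 47.9 CPM in stimulated and 48.8, 20.3, 58.9 and 32.7 CPM in naive libraries. Stimulated 3 reached into the Torin range, and the change against stimulated cells was -1.91 ± 0.52 (SE, adjusted p = 0.0664 by edgeR). Parp14, an ADP-ribosyltransferase, was at 2.71, 3.32 and 3.98 CPM in Torin libraries, against 3.83, 5.88, 2.42 and 5.51 CPM in stimulated and 16.6, 18.8, 19.95 and 19.2 CPM in naive libraries. Its 4.23-fold fall in stimulated against naive cells had the smallest adjusted p of the 36 in that comparison (0.000122 by edgeR), and Torin and stimulated libraries overlapped. Parp9, of the same family, was at 1.40, 2.05 and 1.88 CPM in Torin libraries, against 4.39, 6.33, 2.38 and 3.69 CPM in stimulated and 7.26, 10.8, 6.89 and 7.94 CPM in naive libraries. It fell 1.96-fold in stimulated against naive cells (adjusted p = 0.0217 by edgeR, not past without naive 2, stimulated 3 or stimulated 4) and missed the threshold in Torin against stimulated cells (-1.24, adjusted p = 0.0573 by edgeR).

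Of the 4 nucleic acid sensors, none passed between Torin and stimulated cells by edgeR (3 lower at an unadjusted p below 0.05, 1 lower with DESeq2) and 2 fell in stimulated against naive cells. Ddx58, which encodes the RNA sensor RIG-I, was at 0.749, 0.127 and 0.0732 CPM in Torin libraries, against 1.52, 2.67, 1.86 and 1.44 CPM in stimulated and 11.5, 10.9, 10.3 and 10.6 CPM in naive libraries. No group overlapped another, and the fall in stimulated against naive cells was 5.79-fold (adjusted p = 0.00582 by edgeR). In Torin against stimulated cells it changed by -2.57 (adjusted p = 0.0573 by edgeR). Zbp1, which binds Z-form nucleic acids, was at 8.72, 6.30 and 13.2 CPM in Torin libraries, against 18.3, 56.5, 13.6 and 28.5 CPM in stimulated and 71.5, 112, 56.5 and 53.4 CPM in naive libraries. It fell 2.51-fold in stimulated against naive cells (adjusted p = 0.0318 by edgeR), and that call ended without naive 1, naive 2, stimulated 1, stimulated 3 or stimulated 4, with log2 changes between -1.86 and -1.01. With the replicate block it also passed in Torin against stimulated cells (-1.19, adjusted p = 0.0458 by edgeR). Ifih1, which encodes the long double-stranded RNA sensor MDA5, was at 0.0272, 0.0134 and 0.447 CPM in Torin libraries, against 0.290, 1.53, 1.01 and 0.723 CPM in stimulated and 1.59, 1.77, 1.09 and 2.07 CPM in naive libraries. Its Torin libraries differed widely, and it passed only against naive cells (9.95-fold, adjusted p = 0.0387 by edgeR), a call that ended without any single naive library, stimulated 3, Torin 1 or Torin 3. Dhx58, which encodes LGP2, a regulator of the other RNA sensors, ranged from 0.251 to 1.25 CPM in Torin, 0.803 to 4.28 CPM in stimulated and 2.30 to 7.77 CPM in naive libraries. It passed as lower in stimulated than in naive cells with the block (-1.37, adjusted p = 0.0247 by edgeR), and its call in Torin against naive cells ended without Torin 3.

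The IFIT genes, whose products bind foreign RNA, had the lowest medians of the role groups, -3.96 in Torin against stimulated cells and -2.26 in stimulated against naive cells, and 3 of the 4 fell in each comparison. Ifit1 was at 0.120, 0.510 and 0.149 CPM in Torin libraries, against 3.31, 7.32, 1.24 and 2.33 CPM in stimulated and 6.60, 9.39, 3.85 and 6.83 CPM in naive libraries. It fell 13.7-fold in Torin against stimulated cells (-3.77 ± 0.73, SE, adjusted p = 0.0201 by edgeR, not past without Torin 1 or Torin 4, at 0.0793 and 0.0674). Ifit3 was at 0.0272, 0.0436 and 0.273 CPM in Torin libraries, against 3.59, 3.45, 0.192 and 1.41 CPM in stimulated and 20.1, 15.0, 15.8 and 13.9 CPM in naive libraries. Stimulated 3 lay below Torin 4, and all naive libraries lay above the rest. Ifit3 fell 18.4-fold in Torin against stimulated cells (adjusted p = 0.0436 by edgeR), a call that ended with the replicate block (-3.94, adjusted p = 0.0855 by edgeR) and without any 1 library other than stimulated 3 or Torin 4 (adjusted p 0.0560 to 0.184 by edgeR). It fell 7.5-fold in stimulated against naive cells (adjusted p = 0.0177 by edgeR), under every single omission as well.

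Ifit3b was at 0.0155, 0.0302 and 0.0505 CPM in Torin libraries, against 0.454, 1.26, 0.317 and 0.308 CPM in stimulated and 8.02, 3.97, 4.48 and 4.23 CPM in naive libraries. The groups did not overlap. It fell 17.7-fold in Torin against stimulated cells (-4.15 ± 0.67, SE, adjusted p = 0.0103 by edgeR, the smallest of the 36), a call that ended only without Torin 3 among the single omissions. Ifit3b in the Torin libraries, and Ifit3 in Torin 1 and Torin 3, lay near 0.0328 CPM. That level corresponds to 10 estimated counts at the median library total. The sizes of both falls in Torin against stimulated cells, and the IFIT median there, are therefore uncertain. Ifit3b fell 8.84-fold in stimulated against naive cells (adjusted p = 0.000892 by edgeR). Of the 50-base stretches of Ifit3, 51.2% also occur in Ifit3b, and 44.5% of those of Ifit3b occur in Ifit3, so the split of reads between the pair is uncertain. Ifit2 was at 0.594, 0.362 and 0.437 CPM in Torin libraries, against 0.324, 2.03, 0.452 and 0.837 CPM in stimulated and 2.13, 3.14, 3.39 and 2.48 CPM in naive libraries. Torin and stimulated libraries overlapped, and the fall of 3.06-fold in stimulated against naive cells (adjusted p = 0.0312 by edgeR) was not past the threshold under 6 single omissions, of naive 2, naive 3, stimulated 1, stimulated 3, stimulated 4 or Torin 4.

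The OAS genes make or resemble the enzymes that make short oligoadenylates, which activate RNase L. None of the 5 passed in stimulated against naive cells by edgeR (2 lower at an unadjusted p below 0.05 and 2 lower with DESeq2), and Oas1a and Oasl1 fell in Torin against stimulated cells. Oasl1 was at 1.3, 1.62 and 1.39 CPM in Torin libraries, against 6.73, 12.7, 2.24 and 6.13 CPM in stimulated and 12.3, 11.7, 7.99 and 10.4 CPM in naive libraries. It fell 4.84-fold in Torin against stimulated cells (adjusted p = 0.0243 by edgeR, not past without any single Torin library). Oas1a, at 2.07 to 4.71 CPM in Torin, 3.74 to 22.3 CPM in stimulated and 14.0 to 22.1 CPM in naive libraries, fell 4.36-fold in Torin against stimulated cells (adjusted p = 0.0427 by edgeR). That call ended without any 1 library other than stimulated 3 (adjusted p 0.05004 to 0.189 by edgeR), and 57.6% of its 50-base stretches also occur in Oas1g, so its count is uncertain. Oasl2 was at 1.14, 0.614 and 2.25 CPM in Torin libraries, against 1.64, 8.46, 2.16 and 3.60 CPM in stimulated and 10.5, 9.61, 6.503 and 12.8 CPM in naive libraries. It did not pass between stimulated and naive cells with all libraries (-1.31, adjusted p = 0.0735 by edgeR), and passed as lower with the replicate block (-1.57, adjusted p = 0.0123 by edgeR) and without the libraries of number 2 (-2.01, adjusted p = 0.0146 by edgeR). Oas3, at 0.167 to 0.702 CPM in Torin, 0.901 to 3.39 CPM in stimulated and 2.69 to 5.92 CPM in naive libraries, passed with the block in both comparisons, at -1.85 in Torin against stimulated cells (adjusted p = 0.0289 by edgeR) and -1.39 in stimulated against naive cells (adjusted p = 0.00574 by edgeR). Oas2 ranged from 0 to 0.0353 CPM in Torin, 0 to 2.68 CPM in stimulated and 0.924 to 2.12 CPM in naive libraries, and its call in Torin against naive cells ended without Torin 1 or Torin 3.

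Bst2, or tetherin, which holds budding virus particles at the cell surface, was the only one of the 36 that passed as higher in stimulated than in naive cells with all libraries and no block. It was at 217, 174 and 147 CPM in Torin libraries, against 513, 684, 407 and 457 CPM in stimulated and 176, 294, 160 and 243 CPM in naive libraries. The stimulated libraries stood above all others, and Torin and naive libraries overlapped. Of all genes, 19.8% had every stimulated library above every naive one. It fell 2.87-fold in Torin against stimulated cells (-1.52 ± 0.26, SE, adjusted p = 0.0132 by edgeR, not past without Torin 3) and rose 2.36-fold in stimulated against naive cells (1.24 ± 0.23, SE, adjusted p = 0.0015 by edgeR). The change between Torin and naive cells was -0.28 (95% interval -0.83 to 0.27). Bst2 is also a marker of plasmacytoid dendritic cells, and it is 1 of the 12 dendritic cell markers whose sums are given above. The part of such cells in its change was not tested.

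Ifitm3, which hinders fusion of viral and cell membranes, was at 163, 173 and 373 CPM in Torin libraries, against 412, 1085, 499 and 847 CPM in stimulated and 126, 798, 144 and 453 CPM in naive libraries. The Torin libraries lay below the stimulated ones, but numbers 2 and 4 were high in naive cells as well, and by edgeR with all libraries and no block neither comparison passed. DESeq2 called it lower in Torin than in stimulated cells, and without naive 2 it passed as higher in stimulated than in naive cells. With the replicate block Ifitm3 passed as lower in Torin than in stimulated cells (-1.24, adjusted p = 0.0359 by edgeR) and as higher in stimulated than in naive cells (1.21, adjusted p = 0.00285 by edgeR).

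**Figure D3:**
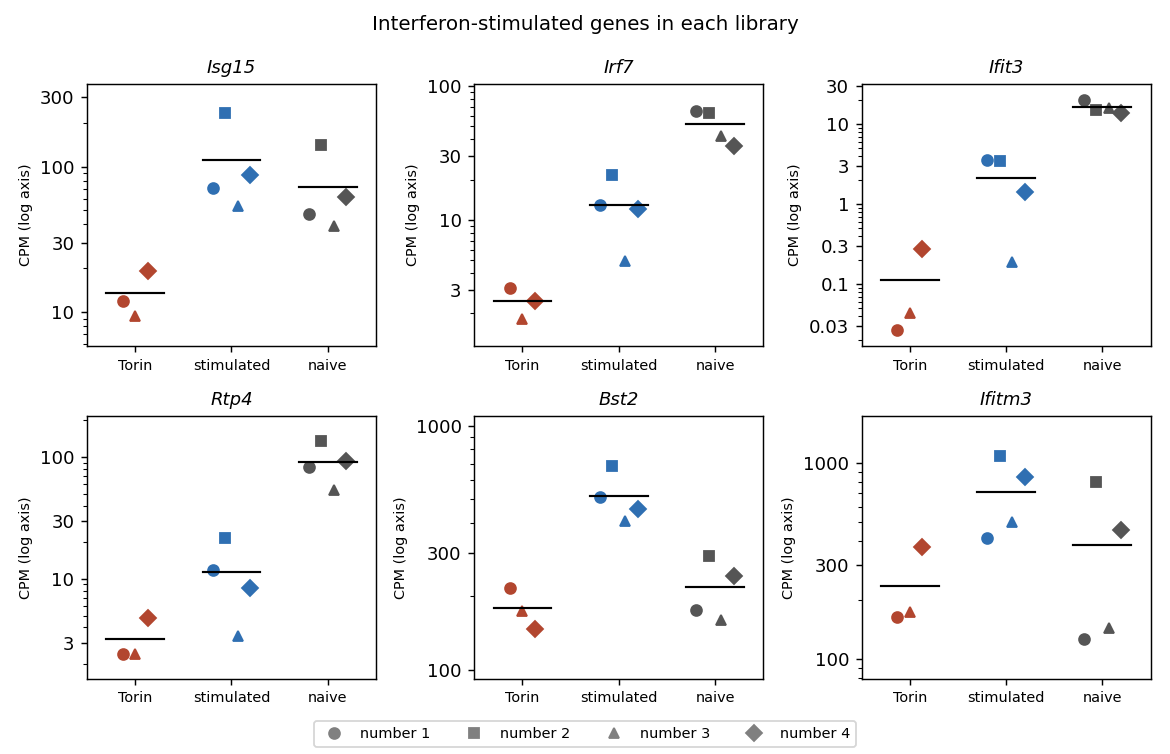
CPM of Isg15, Irf7, Ifit3, Rtp4, Bst2 and Ifitm3 in each library on log axes, with group means as bars and the library number as marker shape. Torin libraries are lowest for Isg15 and Irf7, stimulated libraries are highest for Bst2, and in Rtp4 the naive libraries (53.3 to 135 CPM) stand apart.

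The other antiviral effectors were mixed. Isg20, an exonuclease, was at 4.62, 4.44 and 8.99 CPM in Torin libraries, against 12.4, 30.4, 11.6 and 19.5 CPM in stimulated and 21.7, 34.4, 19.4 and 26.5 CPM in naive libraries. It fell 3.07-fold in Torin against stimulated cells (adjusted p = 0.0431 by edgeR), a call that ended without naive 1, 3 or 4, stimulated 2 or 4, or Torin 1 or 3 (log2 changes over all omissions between -2.01 and -1.27), and with the block it also passed as lower in stimulated than in naive cells (-0.55, adjusted p = 0.0257 by edgeR). Trim30a was at 5.29, 4.28 and 3.57 CPM in Torin libraries, against 21.0, 29.7, 5.24 and 17.3 CPM in stimulated and 28.7, 32.5, 29.99 and 22.6 CPM in naive libraries. It fell 4.18-fold in Torin against stimulated cells (adjusted p = 0.0315 by edgeR), not past with the block (-1.76, adjusted p = 0.0618 by edgeR) or without stimulated 1, 2 or 4 or any 1 Torin library, and stimulated 3 overlapped Torin 1. Herc6, the main ligase for Isg15 in mice, was at 1.79, 1.74 and 1.74 CPM in Torin libraries, against 4.14, 5.55, 2.04 and 5.74 CPM in stimulated and 11.3, 12.2, 8.6 and 10.4 CPM in naive libraries. Its groups did not overlap, with falls of 2.48-fold in Torin against stimulated cells (adjusted p = 0.0434 by edgeR) and 2.43-fold in stimulated against naive cells (adjusted p = 0.00451 by edgeR). The first was not past with the block (-1.12, adjusted p = 0.0720 by edgeR) or without any 1 library other than stimulated 3 (adjusted p 0.0545 to 0.172 by edgeR).

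Samd9l was at 0.423, 0.288 and 0.497 CPM in Torin libraries, against 0.465, 2.03, 0.457 and 1.12 CPM in stimulated and 6.35, 10.1, 8.77 and 10.6 CPM in naive libraries. It fell 8.78-fold in stimulated against naive cells (adjusted p = 0.000421 by edgeR), and its Torin and stimulated libraries overlapped. Rsad2, which encodes viperin, was at 0.275, 0.533 and 1.64 CPM in Torin libraries, against 0.998, 10.9, 1.79 and 4.27 CPM in stimulated and 4.64, 10.01, 2.27 and 3.46 CPM in naive libraries. Number 2 was highest in both groups that have it, and Rsad2 passed only in Torin against naive cells (adjusted p = 0.0482 by edgeR), not without naive 1, naive 2, naive 4, stimulated 3, stimulated 4, Torin 1 or Torin 3. Mx1 was at 0, 0.0939 and 0 CPM in Torin libraries, against 0, 1.28, 0.245 and 0.808 CPM in stimulated and 0.569, 0.388, 0.955 and 1.24 CPM in naive libraries, and passed in no comparison by edgeR with all libraries. DESeq2 called it lower in Torin than in naive cells, as did edgeR without stimulated 1 (-4.64, adjusted p = 0.0477 by edgeR) or Torin 3 (-10.92, adjusted p = 0.0251 by edgeR). Mx2 and Cmpk2, a mitochondrial nucleotide kinase, stayed at or below 3.98 CPM in every library and likewise passed in none by edgeR with all libraries. Cmpk2 was called lower in Torin than in naive cells by DESeq2 and by edgeR in a fit of those 2 groups alone.

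Among the remaining interferon-induced genes, Rtp4 was at 2.42, 2.42 and 4.75 CPM in Torin libraries, against 11.8, 21.5, 3.42 and 8.41 CPM in stimulated and 83.1, 135, 53.3 and 92.2 CPM in naive libraries. It fell 8.05-fold in stimulated against naive cells (-3.01 ± 0.52, SE, adjusted p = 0.000835 by edgeR), and the change in Torin against stimulated cells was -1.82 (adjusted p = 0.0926 by edgeR). Lgals3bp, a secreted glycoprotein, was at 3.88, 5.43 and 6.43 CPM in Torin libraries, against 37.6, 33.4, 11.5 and 20.6 CPM in stimulated and 62.4, 63.2, 35.1 and 51.1 CPM in naive libraries. It fell 4.92-fold in Torin against stimulated cells (adjusted p = 0.0138 by edgeR, not past without Torin 1 or Torin 3). Its fall of 2.05-fold in stimulated against naive cells (adjusted p = 0.0333 by edgeR) ended without the libraries of number 2 (-1.09, adjusted p = 0.0709 by edgeR) and without naive 1, 2 or 4, stimulated 3 or 4, or Torin 4 (adjusted p 0.0530 to 0.0805 by edgeR). Xaf1, which binds the apoptosis inhibitor XIAP, was at 3.31, 2.39 and 5.31 CPM in Torin libraries, against 12.6, 24.0, 7.34 and 10.7 CPM in stimulated and 41.4, 56.4, 36.4 and 43.7 CPM in naive libraries. Its groups did not overlap, with falls of 3.72-fold in Torin against stimulated cells (adjusted p = 0.0277 by edgeR, not past without Torin 1 or Torin 3) and 3.26-fold in stimulated against naive cells (adjusted p = 0.00311 by edgeR).

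Ifi44 was at 0.0815, 0.0604 and 0.510 CPM in Torin libraries, against 2.11, 4.69, 0.870 and 2.60 CPM in stimulated and 0.922, 1.11, 0.863 and 1.18 CPM in naive libraries. It fell 11.8-fold in Torin against stimulated cells (adjusted p = 0.0381 by edgeR), not past without naive 3, stimulated 1, 2 or 4, or Torin 1 or 3 (adjusted p 0.0530 to 0.145 by edgeR). Its call in Torin against naive cells ended without any 1 naive library, stimulated 1, stimulated 4, Torin 1 or Torin 3. Its change of 1.33 in stimulated against naive cells (adjusted p = 0.144 by edgeR) passed as higher in a fit of those 2 groups alone (1.39, adjusted p = 0.0402 by edgeR). Ifi35 fell 1.80-fold in Torin against stimulated cells (adjusted p = 0.0449 by edgeR), not past without naive 2 or 3, stimulated 1, 2 or 4, or any 1 Torin library, with Torin libraries between 48.1 and 61.5 CPM, stimulated libraries between 66.6 and 119 CPM and naive libraries between 81.5 and 121 CPM. Ifi27l2a was at 511, 268 and 105 CPM in Torin libraries, against 1018, 1628, 629 and 417 CPM in stimulated and 979, 1685, 1328 and 1378 CPM in naive libraries. Torin 1 lay above stimulated 4, and by edgeR it passed only in Torin against naive cells (4.56-fold, adjusted p = 0.0115 by edgeR).

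The transcript table adds a feature of Stat2. Its coding transcripts ENSMUST00000105238 and ENSMUST00000085708 are 4397 and 4394 bases long. The longer took 80.3%, 84.6% and 74.0% of the gene's estimated counts in Torin libraries, against 42.7%, 0%, 45.9% and 0% in stimulated and 0%, 0%, 7.31% and 0% in naive libraries. The shorter was at 0% in each Torin library and in stimulated 3, and took 65.8% to 86.1% in naive libraries. The shares rest on a gene at 1.2 to 1.73 CPM in Torin cells and on an assembler's split of near-identical sequences, which was not tested.

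The genes upstream of the 36 in the pathway were tested as lists beside them. Of all genes tested, 19.2% rose and 20.2% fell in stimulated against naive cells. In Torin against stimulated cells 2.32% rose and 2.30% fell. These shares stand beside the counts of each list here and below. Of 10 receptor and JAK-STAT genes tested, 8 fell in stimulated against naive cells and none rose. In Torin against stimulated cells 1 rose and none fell (edgeR, 0 lower also at an unadjusted p below 0.05 and with DESeq2). Ifnar1 was at 5.91, 5.43 and 5.78 CPM in Torin libraries, against 5.95, 5.42, 5.73 and 5.20 CPM in stimulated and 26.0, 19.6, 24.2 and 24.4 CPM in naive libraries. It fell 4.22-fold in stimulated against naive cells (adjusted p = 6.5e-06 by edgeR), and its change in Torin against stimulated cells was 0.03 (95% interval -0.28 to 0.35). Ifnar2 averaged 14.0 ± 1.43, 15.4 ± 2.21 and 40.5 ± 2.69 CPM in Torin, stimulated and naive cells, and Jak1 41.6 ± 3.25, 42.8 ± 6.89 and 190 ± 26.3 CPM (SD, n = 3, 4 and 4). Jak2 was the gene that rose, at 19.9, 15.5 and 23.3 CPM in Torin libraries, against 10.8, 10.05, 8.94 and 11.1 CPM in stimulated and 8.1, 8.29, 5.71 and 7.89 CPM in naive libraries (0.94 ± 0.19 in Torin against stimulated cells, SE, adjusted p = 0.0232 by edgeR).

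**Figure D4:**
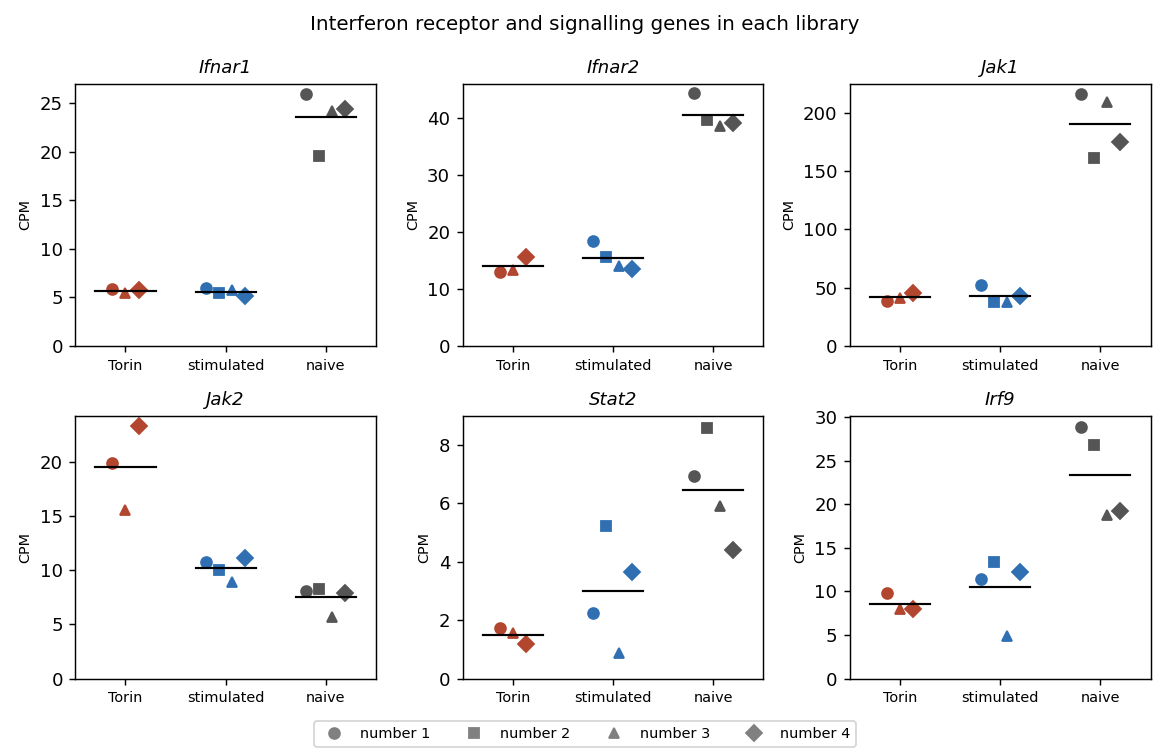
CPM of Ifnar1, Ifnar2, Jak1, Jak2, Stat2 and Irf9 in each library, with group means as bars and the library number as marker shape. Torin and stimulated libraries overlap in all but Jak2, where Torin libraries are highest, and in the other panels every naive library lies above the rest except where Stat2 in stimulated 2 reaches 5.23 CPM.

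Of the interferon genes, 6 of 21 could be tested. In stimulated against naive cells 2 of the 6 rose by edgeR, Ifng and Ifna4, and 0 fell. In Torin against stimulated cells 0 rose and 0 fell by edgeR. Ifng, the type II interferon of activated T cells, was at 336, 593 and 628 CPM in Torin libraries, against 1863, 3516, 3320 and 4096 CPM in stimulated and 189, 62.6, 1.5 and 3.34 CPM in naive libraries. It rose in stimulated against naive cells (5.64 ± 1.3, SE, adjusted p = 0.00514 by edgeR), and all Torin libraries lay below all stimulated ones without passing the test (-2.62, adjusted p = 0.278 by edgeR). Ifnb1, the interferon-beta gene, was at 0, 0.298 and 0.0606 CPM in Torin libraries, against 0.0819, 0.215, 0.264 and 1.9 CPM in stimulated and 0.0426, 0.0580, 0 and 0.0344 CPM in naive libraries. Ifna4, which passed as higher in stimulated than in naive cells, reached at most 0.532 CPM, in stimulated 4, and was at 0 in all naive libraries.

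Of 10 IRF family genes and their binding partners outside the 36, 2 rose and none fell in Torin against stimulated cells, and 2 rose and 5 fell in stimulated against naive cells. Irf2, which can repress interferon-induced promoters, averaged 34.1 ± 1.94, 12.7 ± 2.43 and 41.8 ± 3.50 CPM in Torin, stimulated and naive cells (SD, n = 3, 4 and 4). It rose 2.69-fold in Torin against stimulated cells (adjusted p = 0.0037 by edgeR) and fell 3.30-fold in stimulated against naive cells (adjusted p = 1.68e-05 by edgeR). Irf1 averaged 33.3 ± 4.64, 32.4 ± 5.86 and 87.0 ± 11.7 CPM (SD, n = 3, 4 and 4) in the same order. Of 12 negative regulators of the pathway none passed in Torin against stimulated cells by edgeR (2 higher and 3 lower at an unadjusted p below 0.05, 1 higher and 2 lower with DESeq2), and 4 rose and 4 fell in stimulated against naive cells. Socs1 averaged 204 ± 103, 384 ± 197 and 526 ± 44.3 CPM (SD, n = 3, 4 and 4), passing as lower only in Torin against naive cells (adjusted p = 0.0279 by edgeR). Of 14 sensor adaptors and kinases, none passed in Torin against stimulated cells by edgeR (3 lower at an unadjusted p below 0.05, 2 lower with DESeq2), and 1 rose and 7 fell in stimulated against naive cells.

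A further list of 71 interferon-induced genes, 70 of them tested, gave 3 higher and 10 lower in Torin against stimulated cells, 3 higher and 43 lower in stimulated against naive cells, and 2 higher and 55 lower in Torin against naive cells. Of all genes tested, 2.32% were higher and 2.30% lower in the first of these comparisons, 19.2% and 20.2% in the second and 16.4% and 15.8% in the third. The 10 were Ly6a, Sp110, Trim30d, Phf11b, Phf11d, Pnpt1, Psmb8, Oas1g, Oas1b and Ifi27. Ly6a, a surface protein of activated lymphocytes, had the pattern of calls of Bst2 in the main comparisons. It was at 655, 623 and 724 CPM in Torin libraries, against 2482, 3671, 2702 and 2493 CPM in stimulated and 1180, 1886, 1195 and 975 CPM in naive libraries. It fell 4.25-fold in Torin against stimulated cells (adjusted p = 0.0037 by edgeR) and rose 2.17-fold in stimulated against naive cells (adjusted p = 0.00153 by edgeR). Psmb8, an immunoproteasome subunit, averaged 189 ± 14.6, 324 ± 26.7 and 1342 ± 44.3 CPM in Torin, stimulated and naive cells (SD, n = 3, 4 and 4), passing as lower in both main comparisons. The 3 higher ones were Ms4a4c, Ifi209 and Zc3hav1. Ms4a4c, a four-pass membrane protein, was at 494, 449 and 426 CPM in Torin libraries, against 74.4, 49.1, 120 and 52.2 CPM in stimulated and 225, 161, 302 and 238 CPM in naive libraries, a rise of 6.17-fold in Torin against stimulated cells (adjusted p = 0.00388 by edgeR).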

How the data were processed

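OT-I CD8+ T cells at 12 h were profiled in 11 libraries (Torin 3, stimulated 4, naive 4) from total RNA amplified with a SMARTer poly(A) kit, per the labels' protocols. The gene and transcript tables hold estimated counts as the authors deposited them. STAR 2.7.1a, SAMtools 1.9, StringTie 2.1.0, R 4.0.5, DESeq2 1.30.1 and the build mm39 are named in the submitters' processing notes, without their roles. The columns named Control were matched to the stimulated libraries by their library number and title, and 0 columns were left unused.

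Estimated counts were rounded and tested with edgeR 4.0.16 (R 4.3.3): TMM factors, filterByExpr with a minimum count of 10 (22238 of 55414 genes kept), 1 model of 3 group means over 11 libraries, quasi-likelihood F tests, Benjamini-Hochberg adjustment over all genes tested and a threshold of 0.05. Symbols were found for 94.0% of genes (GENCODE M21). On simulated data, checked for stimulated against naive cells only, the fit called most of the genes given the largest change, in the right direction. Calling all of them was not set as a condition. Recovery of smaller changes was not set as a condition, and Torin against stimulated cells was not checked. SEs come from the fitted change and its F value. The common biological coefficient of variation was 0.79. With estimated counts taken as reads, no pair of libraries agreed within sampling noise (lowest chi-square per gene 291, Torin 1 and Torin 3). Estimated counts need not be reads, so that check cannot decide whether libraries are duplicates. Levels per kilobase used exon lengths of GENCODE M21, since the tables carry none, and no mm39 coordinates are given. Promoters are RefSeq windows on GRCm38.p6.

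The members and lists were chosen with earlier results of these data known, and 1 other gene of the pathway is not reported here. Values in every library were given for members past the threshold in Torin versus stimulated or stimulated versus naive cells, at most 20 by adjusted p, and for a fixed set of 17 members. Others are given by range and count. Of the other lists, fixed genes and the 2 with the smallest adjusted p in each main comparison could be named. Ly6a, Ms4a4c, Jak2 and Irf2 fall under that rule, and the names of the called genes of the further list were added after their values were seen.

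Libraries with the same number deviated together from their group means, with r from 0.15 to 0.29 for stimulated and naive and from 0.11 to 0.31 for Torin and stimulated libraries. For Torin and naive libraries r ran from 0.08 to 0.28. Libraries with different numbers reached at most 0.07 in each comparison. The numbers were therefore taken to pair the libraries. The main tests and counts were made without the block, and values with the replicate block are given where they change a call. Alternatives were DESeq2 1.42.0, library totals without TMM, the table without a filter, only genes averaging 5 CPM or more, 2 groups alone, the block, and omission of each library and of the libraries of number 2. Omission of the libraries of numbers 1, 3 and 4 was added after seeing the data.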

Additional observations from a re-analysis of the deposited data

Results flagged for a closer look

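Of 60 sets of 4 stimulated or 4 naive values examined, 2 held a library far from the other 3, and chance flags about 1 in 20 groups. Both concern Ifit3b. It was at 1.26 CPM in stimulated 2, against 0.308 to 0.454 CPM in the other stimulated libraries. It was at 8.02 CPM in naive 1, against 3.97 to 4.48 CPM in the other naive libraries.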

How the results depend on the processing

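In Torin against stimulated cells 15 members passed as lower with all libraries. The count was 26 with DESeq2, 9 with library totals alone, 6 with only those 2 groups and 5 without the libraries of number 2. It was 1 without number 1 and 0 without number 3 or number 4. Without number 3 or number 4, edgeR called 27 lower at an unadjusted p below 0.05, with no share of all genes counted beside it. Single omissions gave 1 to 20. Of all genes, 7.08% were called lower with DESeq2, 1.55% with library totals alone and 2.56% with only those 2 groups. All 36 changes were below 0 in each of these settings. The median of -1.90 was -1.41 without the libraries of number 2 or stimulated 2, with single omissions between -2.14 and -1.41. Of all genes tested, 1027 were called, against 2757 with DESeq2, 656 with no filter, 338, 191, 14 and 55 without numbers 2, 1, 3 and 4, and 144 to 1058 with single omissions. In stimulated against naive cells the 1 higher member became 3 with the replicate block and 2 with only those 2 groups, and single omissions gave 1 to 2. The median there ranged from -1.44, without stimulated 2, to -0.70, without stimulated 3. In Torin against naive cells 20 members were lower with a mean CPM of at least 5, a filter that only 22 members passed. Of all genes that passed it, 30.8% were lower.

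With the replicate block, Torin against stimulated cells again gave 15 lower members, 12 of them shared: Ifitm3, Oas3 and Zbp1 were gained and Ifit3, Trim30a and Herc6 lost. It gave 19 lower members in stimulated against naive cells and 31 in Torin against naive cells, beside 21.5% and 16.6% of all genes. Of all genes, 965 were called in Torin against stimulated cells and 9163 in stimulated against naive cells. When Ifi27l2a was left out, the means of the summed CPM fell to 554 in Torin, 1673 in stimulated and 1364 in naive libraries. They were 849, 2596 and 2706 with all members. The stimulated mean thus stood below the naive mean with Ifi27l2a and above it without. Directions reversed in stimulated against naive cells for Rsad2 (0.11 without the libraries of number 1, and 0.15 to 0.37 without stimulated 1, naive 2 or stimulated 3), Usp18 (0.18 without number 3 and 0.0247 without stimulated 3) and Isg15 (-0.0301 without stimulated 2), and in Torin against naive cells for Bst2 (0.0169 without number 4). Among the members not named for their values in every library, Ifi35 and Mx2 also changed sign between stimulated and naive cells over single omissions, from -0.21 to 0.14 and from -1.47 to 0.16. None of these values passed the test. Over all single omissions these changes in stimulated against naive cells ran from -1.12 to 0.37 for Rsad2, -0.62 to 0.0247 for Usp18 and -0.0301 to 1.17 for Isg15. With library totals alone, 67.6% of called genes were higher in Torin than in stimulated cells, against 50.1% with TMM, and 28.5% in stimulated than in naive cells, against 48.7%. That scaling put the median of all genes at 0.11, against -0.02, and at -0.71, against -0.22. DESeq2 gave no adjusted p for Ddx58, which is left out of its losses. Omissions of the libraries of numbers 1, 3 and 4 were chosen after seeing the data. Settings without libraries have fewer samples; for the other changes the cause was not tested. Levels near 0.0328 CPM correspond to the minimum of 10 estimated counts, which need not be reads. The lowest Torin levels of Ifit3, Ifit3b, Ifih1, Oas2 and Mx1 lay below it, so the sizes of their changes in Torin cells are uncertain.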
